A study of Mus musculus with 12 samples.

Results

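The acute-phase response genes described here are 8 mouse genes taken by symbol from the expression matrix of a cisplatin study of the heart: Saa3, Lcn2, Serpina3n, Hp, C3, Lbp, Socs3 and Osmr. The matrix lists 55885 genes, of which 13815 had 3 or more hearts with a TPM of 1 or above and were tested, and all 8 genes were among them. TPM is the abundance of a transcript divided by its length and scaled to the same sum in every heart, so that levels of different genes can be set side by side. The genes were chosen by measured values of these hearts. Among them are Saa3, Lcn2 and Serpina3n, which ranked 1, 3 and 5 of the 13815 genes by their rise from Saline to CDDP hearts. Values of CDDP against Saline hearts are therefore given for these genes as a description, without p-values, and the number of them called is printed only beside the share over all tested genes.

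RNA was sequenced from 12 hearts of male mice that were 8 weeks old at the start, with 3 hearts in each of 4 groups. Wild-type mice were C57BL/6J, and the knockout mice had a C57BL/6J background. Wild-type mice received no cisplatin (Saline) or cisplatin (CDDP, a platinum compound that cross-links DNA) at 6 mg/kg into the abdomen on days 1, 8 and 15. Mice that lack STING, the adaptor of cytosolic DNA sensing encoded by Sting1 (Tmem173 in the labels), were left without cisplatin (STING-/-) or received the same doses (STING-/-+CDDP), and hearts were collected on day 22. In the labels the mice without cisplatin are untreated, whereas the study names the wild-type ones a saline group and does not state what they were injected with. The deletion is present in all cells of the animal, so that no cell type can be singled out by it. Wild-type and STING-/- mice came from different suppliers, so effects of genotype and of supplier cannot be told apart.

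The acute-phase response is the change in plasma proteins that follows injury, infection or inflammation. Interleukin 6 and its relatives bind receptors that share the signal-transducing chain gp130 (Il6st), which activates JAK kinases and the transcription factor STAT3, while interleukin 1 and TNF act through NF-kB and C/EBP factors. The liver is the main source of these proteins in blood, but fibroblasts, fat cells, macrophages, neutrophils, endothelium and injured heart muscle also make several of them.

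Sequences upstream of the transcription start were searched for the binding motifs of these factors. RefSeq promoter entries on GRCm38.p6 were matched for 6 of the 8 genes (not for Hp and Lbp), and the 250 bases before the start were read on both strands. The STAT motif TTCNNNGAA, which stood in 7.02% of 32851 promoters, was found in 1 of the 6, Socs3. The C/EBP motif TTGCNNAA, present in 9.56% of promoters, was found in 3 of the 6, Saa3, Lcn2 and C3. The kappa B motif, present in 7.25% of promoters, was found in 0 of the 6. These stretches are shown because they hold the letters that the 2 main routes of the acute-phase response read. They run 5' to 3' toward the gene on the minus strand, capitals mark the motif (for Saa3 as it reads on this strand), and a match describes the letters only.
Saa3 at chr7:46715701-46715926: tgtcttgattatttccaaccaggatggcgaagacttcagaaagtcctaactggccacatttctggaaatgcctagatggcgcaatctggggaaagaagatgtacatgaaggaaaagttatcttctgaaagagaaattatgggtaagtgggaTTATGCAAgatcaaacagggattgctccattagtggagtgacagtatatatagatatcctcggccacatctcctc
Lcn2 at chr2:32387937-32387966: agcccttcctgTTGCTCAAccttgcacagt
C3 at chr17:57228137-57228386: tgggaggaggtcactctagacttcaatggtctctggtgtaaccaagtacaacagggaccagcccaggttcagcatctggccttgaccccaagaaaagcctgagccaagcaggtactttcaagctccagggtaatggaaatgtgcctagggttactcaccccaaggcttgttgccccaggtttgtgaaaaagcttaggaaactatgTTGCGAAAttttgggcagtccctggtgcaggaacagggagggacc
Socs3 at chr11:117969452-117969616: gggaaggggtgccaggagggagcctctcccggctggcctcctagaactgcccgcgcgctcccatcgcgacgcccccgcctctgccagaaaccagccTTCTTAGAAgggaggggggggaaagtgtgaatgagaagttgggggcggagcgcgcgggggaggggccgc
The motif lay 99 to 92 bases before the start in Saa3, 216 to 209 bases in Lcn2, 45 to 38 bases in C3 and 154 to 146 bases in Socs3. The Lcn2 match lies in an annotated exon of another transcript, so only 30 bases are shown. The Socs3 stretch overlaps no annotated exon. Both stretches lie within the annotated span of their gene, so they stand before the RefSeq start but not before every annotated start.

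The samples differed in more than treatment. Sting1 was listed at 6.50 to 12.28 TPM in Saline hearts and at 5.62 to 22.11 TPM in CDDP hearts, against 2.87 to 5.96 TPM in STING-/- and 3.37 to 4.67 TPM in STING-/-+CDDP hearts, so transcript was still counted in the knockout. Ventricular cardiomyocyte markers were high in every heart, with summed levels of 25890 to 51380 TPM. Atrial cardiomyocyte markers ranged from 310.2 to 39130 TPM in Saline hearts, from 857.6 to 14630 TPM in CDDP, from 3026 to 12850 TPM in STING-/- and from 330.6 to 9025 TPM in STING-/-+CDDP hearts. Red blood cell markers summed to 4146 to 9317 TPM in Saline hearts, above all other hearts. They summed to 41.95 to 1271 TPM in CDDP, 263.7 to 1465 TPM in STING-/- and 81.93 to 311.1 TPM in STING-/-+CDDP hearts. Saline hearts thus stood apart even from STING-/- hearts without cisplatin, and every comparison against Saline carries this difference. Its part in the levels of the acute-phase genes was not tested. In bulk tissue, fewer cells of a type and less RNA per cell cannot be told apart. Because the files hold no read counts, the sequencing depth of the hearts is unknown.

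Saa3, Lcn2 and Serpina3n, the secreted proteins with the largest changes, were low in Saline hearts and among the abundant transcripts of CDDP hearts. Saa3 encodes serum amyloid A3, an apolipoprotein of inflamed tissues that macrophages, fat cells and fibroblasts make (chr7:46711998-46715700, GRCm38). Its level was 1.01, 3.46 and 1.98 TPM in Saline hearts 1 to 3 and 651.13, 334.48 and 220.34 TPM in CDDP hearts. It was 6.84, 109.62 and 3.78 TPM in STING-/- hearts and 65.49, 66.91 and 58.34 TPM in STING-/-+CDDP hearts. All CDDP hearts lay above every other heart, and the STING-/-+CDDP hearts lay close together, above the Saline hearts but below 1 of the 3 STING-/- hearts. By mean TPM, Saa3 ranked 11329 of the 13815 genes in Saline, 306 in CDDP, 2042 in STING-/- and 1217 in STING-/-+CDDP hearts.

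Lcn2 encodes lipocalin 2, which binds bacterial iron carriers and is also a neutrophil granule protein (chr2:32384633-32388252). Saline hearts held 1.38, 15.00 and 12.95 TPM and CDDP hearts 985.50, 172.12 and 260.52 TPM. STING-/- hearts held 24.91, 142.43 and 25.62 TPM and STING-/-+CDDP hearts 183.46, 165.62 and 125.57 TPM. All hearts of the 3 other groups were above the Saline hearts, and the CDDP and STING-/-+CDDP hearts overlapped. Serpina3n encodes a secreted inhibitor of serine proteases (chr12:104406729-104414329). Its level was 2.69, 67.20 and 21.39 TPM in Saline and 1001.98, 139.26 and 535.66 TPM in CDDP hearts. It was 33.64, 172.28 and 38.33 TPM in STING-/- and 179.06, 239.22 and 114.75 TPM in STING-/-+CDDP hearts. The CDDP hearts were above the Saline hearts, while the STING-/- hearts overlapped all 3 other groups. Of 50-base stretches of Serpina3n, 6.9% also occur in other genes, among them the paralogs Serpina3c, Serpina3f, Serpina3g and Serpina3m, so a share of its reads could be assigned to them or from them.

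**Figure D1:**
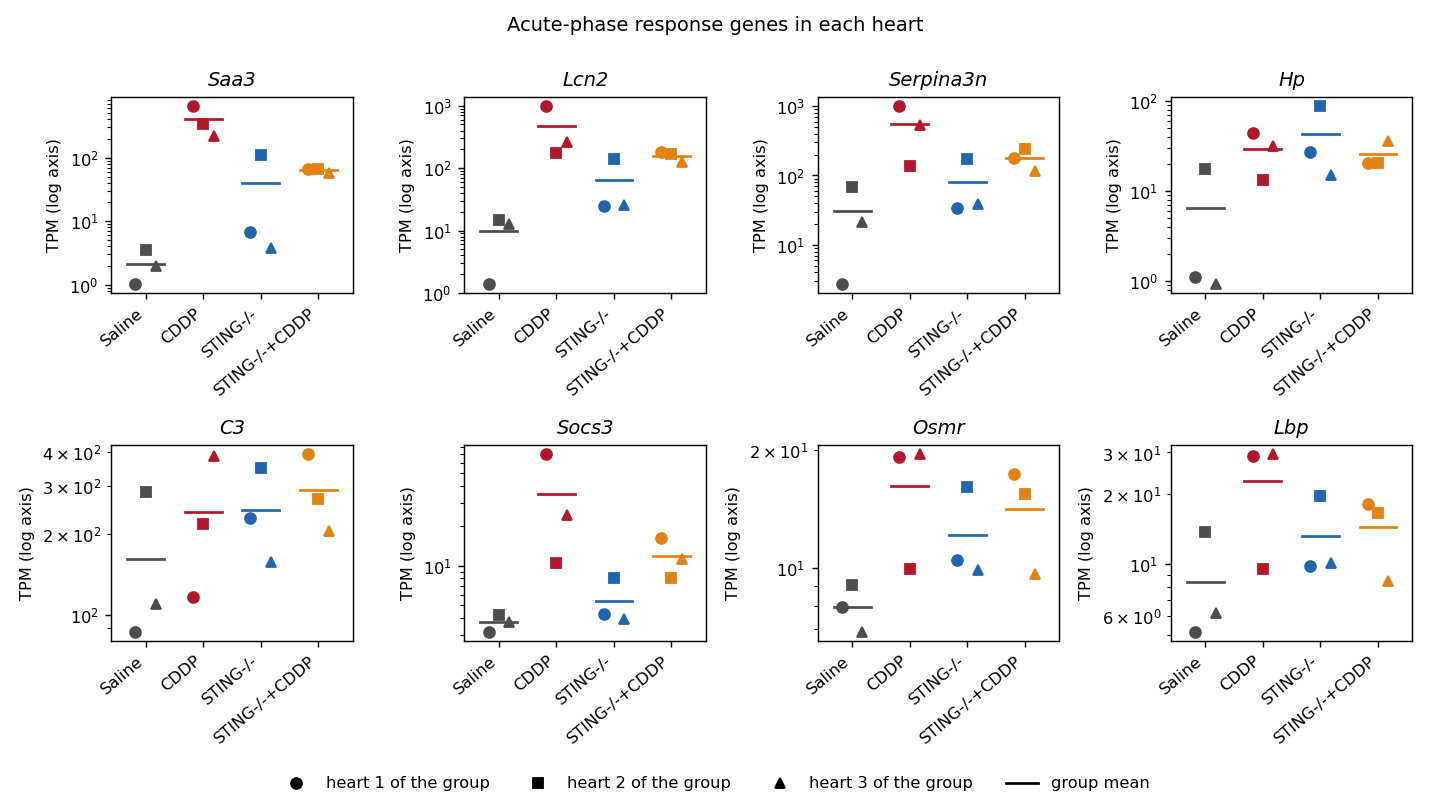
Level in TPM (log axis) of the 8 genes in each of the 12 hearts, by group, with the heart number as the symbol and the group mean as a line. Saa3 of the 3 CDDP hearts lies above all other hearts, while the groups overlap for C3, and heart 2 is the highest of the Saline and of the STING-/- hearts in all 8 panels.

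Haptoglobin, complement C3 and LPS-binding protein are plasma proteins for which the groups lay nearer to each other. Haptoglobin (Hp, chr8:109575128-109579172) captures free hemoglobin. Its level was 1.12, 17.48 and 0.92 TPM in Saline, 43.41, 13.15 and 31.91 TPM in CDDP, 27.35, 87.47 and 15.10 TPM in STING-/- and 20.33, 20.29 and 35.78 TPM in STING-/-+CDDP hearts. The Saline group held both the lowest hearts and 1 heart within the range of the CDDP group, and the highest heart of all was a STING-/- heart. C3 (chr17:57203970-57228136, overlapping the microRNA gene Mir6978) is the protein on which all complement routes converge. It was 86.90, 285.71 and 109.91 TPM in Saline, 116.41, 216.83 and 387.45 TPM in CDDP, 228.29, 348.40 and 157.18 TPM in STING-/- and 395.07, 269.37 and 205.27 TPM in STING-/-+CDDP hearts. Every pair of groups overlapped, and C3 was abundant throughout, with ranks by mean TPM between 355 and 569. Lbp (chr2:158306493-158332852) hands bacterial lipopolysaccharide to CD14 and TLR4. Saline hearts held 5.14, 13.78 and 6.19 TPM, CDDP hearts 29.00, 9.50 and 29.68 TPM, STING-/- hearts 9.85, 19.48 and 10.07 TPM and STING-/-+CDDP hearts 18.13, 16.52 and 8.50 TPM. Hearts 1 and 3 of the CDDP group were the highest, and heart 2 fell within the Saline range.

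Osmr and Socs3 belong to the signalling side of the response. Osmr (chr15:6813577-6874969) encodes the oncostatin M receptor, which pairs with gp130. It was 7.93, 9.03 and 6.87 TPM in Saline, 19.21, 9.93 and 19.61 TPM in CDDP, 10.47, 16.13 and 9.89 TPM in STING-/- and 17.38, 15.44 and 9.63 TPM in STING-/-+CDDP hearts. All hearts outside the Saline group were above it, by a narrow margin for the lowest. Socs3 (chr11:117966079-117970047), a STAT3 target that shuts off gp130 and JAK signalling, was 3.15, 4.24 and 3.74 TPM in Saline and 70.80, 10.55 and 24.34 TPM in CDDP hearts. It was 4.33, 8.02 and 3.93 TPM in STING-/- and 16.26, 8.01 and 11.28 TPM in STING-/-+CDDP hearts. The CDDP hearts spanned a wide range, from 10.55 to 70.80 TPM, all above the Saline and STING-/- hearts.

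Ordered by mean TPM, CDDP hearts came first for Saa3, Lcn2, Serpina3n, Socs3, Osmr and Lbp, followed by STING-/-+CDDP, STING-/- and Saline hearts. Saa3 was the one gene for which CDDP and STING-/-+CDDP hearts did not overlap. For Hp the order was STING-/-, CDDP, STING-/-+CDDP and Saline, and neighbours overlapped except the STING-/-+CDDP hearts, which all lay above the Saline hearts. For C3 it was STING-/-+CDDP, STING-/-, CDDP and Saline, with overlap between all neighbours.

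Fold changes are log2 differences of TPM + 1 between group means, with the standard error of the model fitted to all 12 hearts, and they understate the change of low genes. Between CDDP and Saline hearts, the contrast used to choose the genes, the log2 change was 6.93 (SE 0.90) for Saa3, 5.45 (SE 0.85) for Lcn2 and 4.57 (SE 1.00) for Serpina3n. The ratio of mean TPM was 187 for Saa3. It was 2.70 (SE 0.83) for Hp and 2.56 (SE 0.52) for Socs3 on the log2 scale. The smallest log2 changes were 1.30 (SE 0.47) for Lbp, 0.90 (SE 0.29) for Osmr and 0.61 (SE 0.50) for C3. Of the 8 genes, 6 passed an adjusted p of 0.05 and rose, all but C3 and Lbp, where 8.52% of all tested genes did so. In 5 of the 8 the CDDP hearts were above the Saline hearts without overlap, against 14.9% of all tested genes. The median log2 change was 2.63 for the 8 genes and -0.003 for all tested genes. These counts describe the choice of the genes, and nothing is read from them. With CDDP heart 1 left out, in which neutrophil markers stood apart at a summed 1146 TPM, 4 of the 8 passed and rose, as did 1180 of 13699 tested genes. The log2 change was then 6.51 for Saa3, 4.72 for Lcn2 and 3.95 for Serpina3n.

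**Figure D2:**
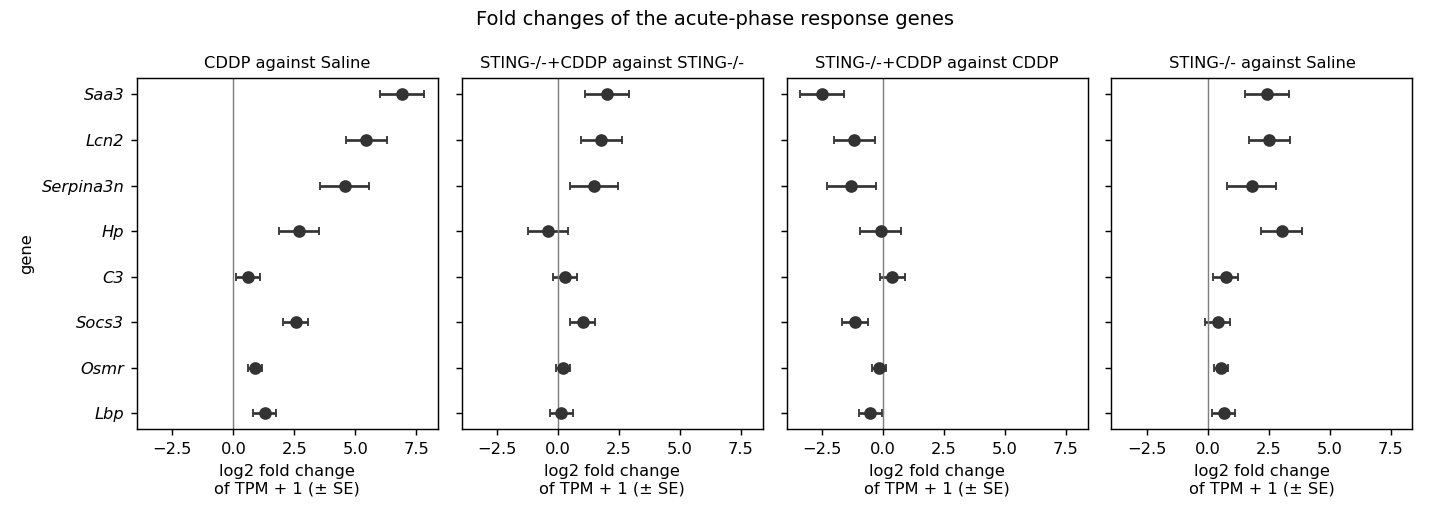
Log2 fold change of TPM + 1 (points) with the standard error of the model (bars) for the 8 genes in 4 comparisons. CDDP against Saline, the contrast used to choose the genes, runs from 0.61 for C3 to 6.93 for Saa3, and the comparison within STING-/- hearts from -0.42 for Hp to 2.00 for Saa3.

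The comparison of STING-/-+CDDP with STING-/- hearts shares no heart with CDDP against Saline. It asks whether cisplatin changed the 8 genes in hearts without STING. Whether its hearts also entered the choice of the genes is not known. The spread comes from the hearts of all groups, so its p-values are no independent test. The comparison was tested with limma, two-sided, with Benjamini-Hochberg adjustment over all tested genes. None of the 8 genes passed: 0 of 8 had an adjusted p under 0.05, against 0.934% of all tested genes, and 1 of 8, Saa3, had an unadjusted p under 0.05, against 13.5%. The groups overlapped for all 8, whereas 7.28% of tested genes lay above without overlap. Log2 changes were 2.00 (SE 0.90, limma adjusted p = 0.359) for Saa3, 1.77 (SE 0.85, limma adjusted p = 0.393) for Lcn2 and 1.47 (SE 1.00, limma adjusted p = 0.567) for Serpina3n. They were 1.00 (SE 0.52, limma adjusted p = 0.437) for Socs3 and between -0.42 and 0.27 for Hp, C3, Osmr and Lbp, with adjusted p from 0.811 to 0.941. The median was 0.635 for the 8 genes and -0.107 for all tested genes. STING-/- heart 2 decided the call for Saa3: without it the log2 change of Saa3 was 3.40 (SE 0.43, limma adjusted p = 0.0171), that of Lcn2 was 2.58, and that of Hp turned to 0.26. Without STING-/- heart 3 the log2 change of Saa3 was 1.13, and without STING-/-+CDDP heart 1 the median of the 8 genes was 0.401. Leaving out CDDP heart 1, which is in neither group, kept Socs3 at 1.00 but gave an SE of 0.34 (limma adjusted p = 0.170). With a p that misses the threshold, a cisplatin change of these genes in STING-/- hearts is neither shown nor shown to be missing.

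STING-/-+CDDP hearts were also set against CDDP hearts, a comparison that shares the CDDP hearts with the one that chose the genes and is given as a description. The log2 difference was -2.50 (SE 0.90) for Saa3, -1.30 (SE 1.00) for Serpina3n, -1.17 (SE 0.85) for Lcn2 and -1.15 (SE 0.52) for Socs3. It was -0.53 for Lbp, -0.17 for Osmr, -0.10 for Hp and 0.38 for C3. The level was thus lower on average for 7 of the 8 genes, and without overlap for 1, Saa3, against 15.6% of all tested genes. In limma 0 of 8 were called lower, against 0.854% of all tested genes, and 2 of 8 had an unadjusted p under 0.05 against 19.8%. The median was -0.844 for the 8 genes and -0.095 for all tested genes. Without STING-/- heart 2, which enters only through the shared spread, 1 of 8 was called lower, Saa3, as were 59 of 13699 tested genes. Without CDDP heart 1 the log2 difference was -2.08 for Saa3, -0.68 for Serpina3n, -0.44 for Lcn2 and -0.46 for Socs3, and the median of the 8 genes was -0.361. Without CDDP heart 2 it was -2.10 for Serpina3n, -1.69 for Lcn2 and -1.78 for Socs3, with a median of -1.37.

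Without cisplatin, STING-/- hearts lay above Saline hearts on average for all 8 genes, in a comparison that shares the Saline hearts with the one that chose them. The log2 difference was 3.02 for Hp, 2.51 for Lcn2, 2.43 for Saa3 and 1.80 for Serpina3n, and between 0.40 and 0.73 for Socs3, Osmr, Lbp and C3. The groups did not overlap for 3 of the 8, Saa3, Lcn2 and Osmr, against 2.76% of all tested genes. In limma 0 of 8 were called higher, against 0.029% of all tested genes, and 3 of 8 had an unadjusted p under 0.05 against 3.69%. The median was 1.26 for the 8 genes and 0.002 for all tested genes. That median was 0.599 without Saline heart 1, 1.98 without Saline heart 2 and 0.735 without STING-/- heart 2, and with the atrial marker level as a covariate it was 0.485. Red blood cell markers also differed between STING-/- and Saline hearts (median log2 difference -3.01), and their part in these values was not tested.

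The difference between the cisplatin change in STING-/- and in wild-type hearts (the interaction) was negative for all 8 genes. It was -4.93 for Saa3, -3.69 for Lcn2, -3.13 for Hp and -3.10 for Serpina3n on the log2 scale, with a median of -2.33 for the 8 genes and -0.101 for all tested genes. Since it uses the hearts that chose the genes, it is a description. In limma 0 of 8 were called, against 0.00724% of all tested genes, and 4 of 8 had an unadjusted p under 0.05 against 11.7%. With the atrial marker level as a covariate the median was -1.42, with -1.76 for Hp and -1.59 for Serpina3n, and C3 turned to 0.52. Without Saline heart 1 the value of Serpina3n was -1.97.

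Hearts of 1 group differed in which of the 8 genes were high. Heart 2 of the Saline group and heart 2 of the STING-/- group were the highest of their group for all 8 genes. In the CDDP group heart 1 was the highest for 5 genes and heart 3 for 3, while heart 2 was the lowest for 6, and heart 1 was the lowest for C3. In the STING-/-+CDDP group heart 1 was the highest for 5 and heart 3 the lowest for 6, although heart 3 was the highest for Hp. Markers of other cells moved with some of these hearts. The summed level of 11 neutrophil markers was 1146 TPM in CDDP heart 1 against 47.12 and 29.21 TPM in CDDP hearts 2 and 3, and it was 33.73, 9.62 and 9.86 TPM in Saline hearts. It was 18.01, 94.34 and 5.87 TPM in STING-/- and 50.99, 43.1 and 38.3 TPM in STING-/-+CDDP hearts, so the highest STING-/- heart for the 8 genes was also the highest for these markers. Ly6g, 1 of the 11, was at most 1.75 TPM in any heart and at 0 in all STING-/- hearts and in Saline hearts 1 and 2. The other markers were all above 0 in STING-/- heart 2.

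Saline heart 2 and STING-/- heart 2 were the highest of their groups for atrial markers, with 39130 and 12850 TPM, and for 7 mesothelium markers, with 162.7 TPM against 33.36 and 24.82 TPM, and 149.2 TPM against 74.75 and 58.54 TPM. CDDP heart 1, the highest for Saa3, Lcn2, Serpina3n and Socs3, had the lowest mesothelium level of its group, 22.82 TPM. CDDP heart 3, the highest of its group for C3, Osmr and Lbp, was the highest for atrial and mesothelium markers, with 14630 and 93.62 TPM. STING-/-+CDDP heart 1, the highest of its group for 5 of the 8 genes, was also the highest for both, with 9025 and 106.5 TPM. The 8 fibroblast markers summed to 4685 TPM in Saline heart 2 against 1911 and 2028 TPM, and to 3254 TPM in STING-/- heart 2 against 2968 and 2555 TPM. In CDDP heart 1 they were the lowest of the group, at 1617 TPM against 2272 and 4625 TPM. Hepatocyte markers were likewise highest in Saline heart 2 and STING-/- heart 2 and lowest of their group in CDDP heart 1. The part of neutrophils, atrial tissue, mesothelium and fibroblasts in the levels of the 8 genes was not tested. Markers of 9 monocyte and macrophage genes summed to 259.0 to 337.9 TPM in Saline, 73.08 to 222.0 TPM in CDDP, 657.7 to 1067 TPM in STING-/- and 271.7 to 602.4 TPM in STING-/-+CDDP hearts. Lyz2 carried these sums in the knockout, with 175.56 to 706.46 TPM in STING-/- and STING-/-+CDDP hearts against 0.95 to 2.45 TPM in Saline hearts. In CDDP hearts 1 to 3 Lyz2 was 1.06, 1.01 and 83.52 TPM. Without Lyz2 the 8 other genes summed to 257.8 to 335.4 TPM in Saline, 72.0 to 153.3 TPM in CDDP, 240.4 to 360.9 TPM in STING-/- and 96.1 to 200.9 TPM in STING-/-+CDDP hearts. The 12 hepatocyte markers summed to 4.22 to 159.7 TPM in Saline, 41.53 to 175.0 TPM in CDDP, 66.64 to 99.04 TPM in STING-/- and 53.38 to 87.03 TPM in STING-/-+CDDP hearts. Ahsg, with up to 125.26 TPM, and Cyp2e1, with up to 44.94 TPM, held most of these sums. All 6 tested hepatocyte markers had a positive log2 change in CDDP against Saline hearts, with a median of 1.58. Of them 1 was called higher, against 8.52% of all tested genes. The 6 tested neutrophil markers were also all positive there (median 2.51), as were 4 of 5 atrial markers (median 2.99). Of the other lists, fat cell markers had a positive median, 0.56, and the rest negative ones. The lowest was -4.87, for red blood cell markers. The part of hepatocyte markers in the levels of the 8 genes was not tested. Albumin (Alb), the defining hepatocyte marker, was at most 0.12 TPM in Saline and CDDP hearts and at most 5.13 TPM in any heart. Serpina1a was at 0 in all Saline and CDDP hearts, and Apob and Fgb were at 0 in all Saline hearts.

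**Figure D3:**
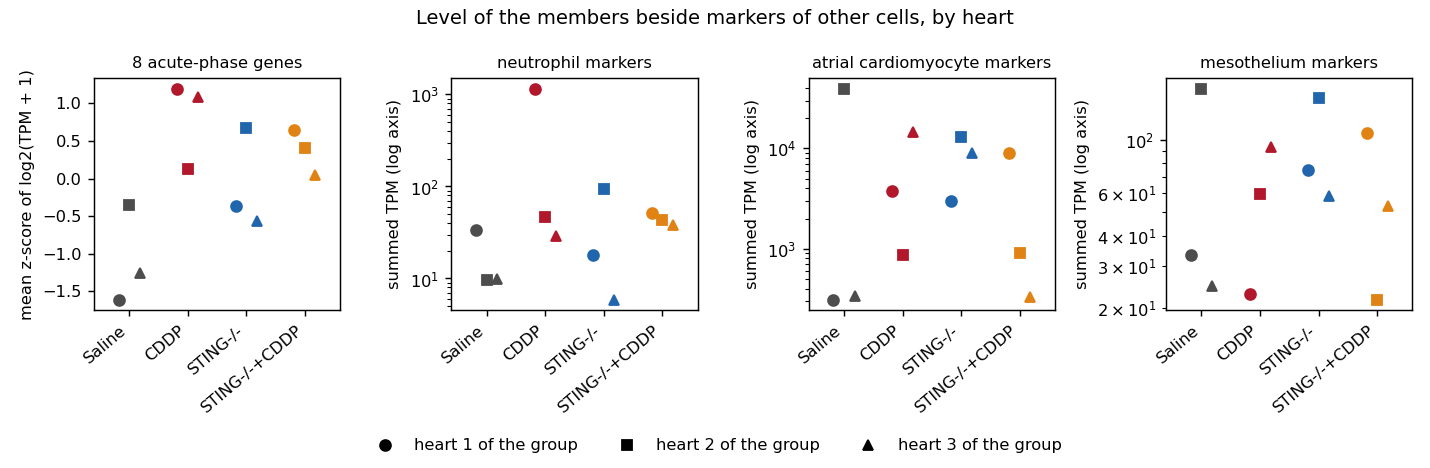
Mean z-score of log2(TPM + 1) over the 8 genes (linear axis) and summed TPM of neutrophil, atrial cardiomyocyte and mesothelium markers (log axes) in each heart, by group, with the heart number as the symbol. CDDP heart 1 stands apart for neutrophil markers at 1146 TPM, and Saline heart 2 for atrial markers at 39130 TPM.

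The other genes of the pathway were counted from 10 lists of textbook members, 108 genes beside the 8, of which 107 were matched by symbol and 75 were tested. Between CDDP and Saline hearts 18 of the 75 rose and 6 fell in limma, which is 24.0% and 8.0%, against 8.52% and 10.4% of all tested genes. STAT3 targets and other acute-phase proteins made up 12 of the 18 that rose. The shares of 8.52% and 10.4% stand beside the counts of every list below. The count of 18 fell to 8 without Saline heart 1, 9 without Saline heart 3 and 10 without CDDP heart 3. Over all tested genes the calls higher fell as well, from 1177 to 534, 575 and 655 in these fits. The lists were written with earlier results of these data known.

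Ligands of the IL-6 family were near the limit of detection in most hearts, and 2 of the 8 passed the filter. Interleukin 6 (Il6) was 5.05 TPM in CDDP heart 1 and at most 0.55 TPM in every other heart. Osm (oncostatin M, 1.79 TPM) and Lif (1.15 TPM) were also highest in CDDP heart 1. Il11 and Il27 were at most 0.23 TPM in all hearts, and Cntf was 4.14 TPM in Saline heart 2 and at most 0.09 TPM elsewhere. Clcf1 had a log2 change of 0.61 (limma adjusted p = 0.0974) and Ctf1 one of -0.22 (limma adjusted p = 0.560) with cisplatin in wild-type hearts.

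Of the 6 receptors, none rose and 1 fell: Il27ra, the interleukin 27 receptor, went from 2.94, 4.37 and 1.86 TPM in Saline to 0.65, 0.96 and 0.86 TPM in CDDP hearts (log2 change -1.11, limma adjusted p = 0.0119). The shared chain Il6st was 38.27, 69.35 and 32.34 TPM in Saline and 54.17, 57.14 and 87.85 TPM in CDDP hearts (log2 change 0.54, limma adjusted p = 0.234), with overlap. Il6ra had a log2 change of 0.58 (limma adjusted p = 0.194), Lifr of -0.17 and Il11ra1 of 0.01, each with overlap. Cntfr, the receptor of ciliary neurotrophic factor, was 1.77, 18.71 and 4.34 TPM in Saline and 3.87, 8.00 and 11.41 TPM in CDDP hearts (limma adjusted p = 0.761).

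Among 6 JAK-STAT genes 2 rose and 1 fell. Stat3, the transcription factor of the acute-phase response, was 38.02, 48.35 and 28.96 TPM in Saline and 168.84, 72.36 and 92.65 TPM in CDDP hearts (log2 change 1.45, limma adjusted p = 0.00674). Jak2 rose by a log2 change of 0.53 (limma adjusted p = 0.0397). STING-/-+CDDP hearts held 52.47, 50.73 and 44.07 TPM of Stat3, below every CDDP heart, a log2 difference of -1.08 that did not pass (limma adjusted p = 0.0859).

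STAT3 targets and feedback genes formed the list with the most calls: 7 of 11 tested genes rose, against 8.52% of all tested genes, and none fell. The median log2 change was 1.18, against -0.003 for all tested genes. Lrg1, a plasma glycoprotein made by liver and neutrophils, was 18.09, 38.61 and 45.83 TPM in Saline and 981.94, 156.91 and 128.55 TPM in CDDP hearts (log2 change 3.05, limma adjusted p = 0.00789). Timp1, an inhibitor of matrix metalloproteinases, rose by 2.22 (limma adjusted p = 0.0441) and Cebpd, a C/EBP transcription factor, by 1.72 (limma adjusted p = 0.0168). The kinase gene Pim1 rose by 1.38 (limma adjusted p = 0.00218) and the interleukin 4 receptor gene Il4ra by 1.25 (limma adjusted p = 0.0114) on the log2 scale. Pim1 was also lower in STING-/-+CDDP than in CDDP hearts, with 14.44, 13.29 and 12.10 TPM against 47.77, 24.83 and 36.70 TPM (log2 difference -1.35, limma adjusted p = 0.0216). It was 13.54, 13.69 and 11.62 TPM in Saline hearts, so that the hearts of both groups overlapped.

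Other acute-phase proteins that the heart transcribed rose in part, with 5 of 9 tested genes called and none lower. Saa1 was 0.00, 0.15 and 0.12 TPM in Saline and 8.76, 2.32 and 5.82 TPM in CDDP hearts (log2 change 2.47, limma adjusted p = 0.00604). Saa2 was listed at 0 in all Saline hearts and at 1.69, 0.84 and 3.16 TPM in CDDP hearts (limma adjusted p = 0.0302). Both stayed far below Saa3. Itih4 (log2 change 2.46, limma adjusted p = 0.0243), Itih3 (1.56, limma adjusted p = 0.0158) and Cp, ceruloplasmin (1.12, limma adjusted p = 0.0480), rose as well, with overlap between groups for Itih4 and Cp. Crp was at most 0.16 TPM and Apcs at most 0.19 TPM in every heart. Of the Serpina3 paralogs, 1 of 3 tested rose, Serpina3m, from 0.13, 0.11 and 0.00 TPM to 11.60, 2.18 and 5.05 TPM (limma adjusted p = 0.00336), and it shares sequence with Serpina3n. Of 4 tested genes whose proteins fall in the acute phase, 1 rose, transthyretin (Ttr, log2 change 1.53, limma adjusted p = 0.0160), and its level stayed at or below 4.83 TPM.

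Among the other complement genes 0 of 16 rose and 3 fell, the subunits of C1q. C1qa went from 165.70, 216.86 and 178.23 TPM in Saline to 41.81, 107.59 and 95.56 TPM in CDDP hearts (log2 change -1.29, limma adjusted p = 0.0222). C1qb changed by -1.21 (limma adjusted p = 0.00696) and C1qc by -1.43 (limma adjusted p = 0.00536). C1q is made by macrophages. Their 7 other markers, without C1qa and Lyz2, summed to 79.6 to 118.6 TPM in Saline and 30.2 to 45.7 TPM in CDDP hearts, and with Lyz2 included CDDP heart 3 reached 126.5 TPM, above the Saline hearts. The part of macrophages in the C1q values was not tested. Of the 11 tested receptors and partners of the 8 proteins, 1 rose and 1 fell. Tlr4, the receptor to which Lbp passes lipopolysaccharide, was 5.30, 6.36 and 5.23 TPM in Saline and 9.39, 11.65 and 12.63 TPM in CDDP hearts (log2 change 0.88, limma adjusted p = 0.0197). It was 4.98, 6.69 and 3.29 TPM in STING-/-+CDDP hearts, below all CDDP hearts (log2 difference -1.06, limma adjusted p = 0.0469). The receptor gene of the C3a fragment, C3ar1, fell by 1.12 on the log2 scale (limma adjusted p = 0.0142) with cisplatin in wild-type hearts. In the IL-1 and NF-kB list 1 of 7 rose, the NF-kB subunit gene Rela (log2 change 0.66, limma adjusted p = 0.0474).

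**Figure D4:**
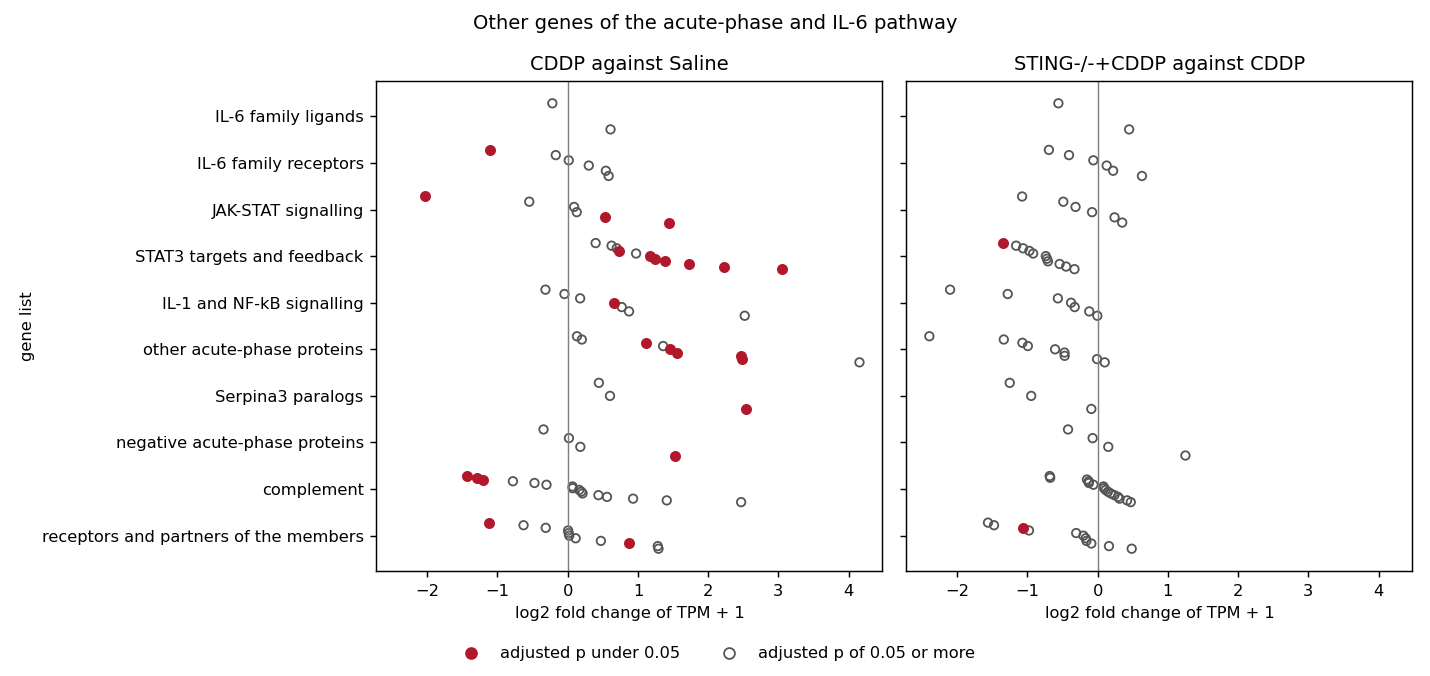
Log2 fold change of TPM + 1 of the 75 tested pathway genes, 1 point per gene, by list, for CDDP against Saline and STING-/-+CDDP against CDDP, with filled points for an adjusted p under 0.05. Of the filled points, 18 lie above 0 and 6 below in the first panel, and 2, Pim1 and Tlr4, lie below 0 in the second.

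In the other comparisons few of the 75 pathway genes were called. Between STING-/-+CDDP and CDDP hearts 0 rose and 2 fell, Pim1 and Tlr4, which is 2.67% against 0.854% of all tested genes, and 17 (22.7%) had an unadjusted p under 0.05, against 19.8% of all tested genes. Over the 12 fits that each left out 1 heart the number of pathway genes called ran from 0 to 6. It was 0 without CDDP heart 3 or any of the STING-/-+CDDP hearts, 6 without CDDP heart 2 and 3 without Saline heart 2. In each of the other fits it was 1. Calls over all tested genes moved the same way, with 130 higher and 250 lower without CDDP heart 2. Without CDDP heart 3 they were 19 and 22, and without STING-/-+CDDP heart 2 they were 5 and 6. All 11 tested STAT3 targets had a negative log2 difference between STING-/-+CDDP and CDDP hearts, and 1 of them passed. Their median was -0.738, against -0.095 for all tested genes, and the CDDP hearts in which they rose enter this comparison too. Between STING-/- and Saline hearts limma called 0 of 75, against 0.0724% of all tested genes (4, or 5.33%, with an unadjusted p under 0.05, against 3.69%), between STING-/-+CDDP and STING-/- hearts 0, against 0.934% (9, or 12%, with an unadjusted p under 0.05, against 13.5%), and for the interaction 0, against 0.00724% (16, or 21.3%, with an unadjusted p under 0.05, against 11.7%).

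The genes with the profile nearest to the mean of the 8 over the 12 hearts were found by the root mean square difference of z-scored log2(TPM + 1). Gfpt2, an enzyme of hexosamine synthesis, was the nearest at 0.208, with 8.57 to 18.79 TPM in Saline, 22.72 to 43.98 TPM in CDDP, 15.71 to 27.22 TPM in STING-/- and 19.13 to 28.03 TPM in STING-/-+CDDP hearts. Of the next 4, 2 were loci without a gene name, and the others were Ccdc192 (0.279) and Chil1 (0.300), a secreted chitinase-like protein, at 0.08 to 5.84 TPM in Saline and 7.35 to 42.72 TPM in CDDP hearts. All hearts entered both the mean and this ranking, and no test goes with it.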

How the data were processed

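RNA of 12 mouse hearts was analysed from 1 deposited matrix of TPM values per gene, which the authors made from their reads. The submitters' processing notes name fastp, HISAT, RSEM and the build GRCm38.p5, without versions. TPM are scaled per transcript length to the same sum in every heart, and 4 columns of group means were not used. TPM keep no read counts, so depth and counting error are unknown. Groups came from the sample labels, and each heart is a separate sample. Values were set to log2(TPM + 1), genes were tested where 3 or more hearts had a TPM of 1 or above (13815 of 55885), and limma 3.58.1 in R 4.3.3 was fitted to all 4 groups with a trend in eBayes (residual df 8), two-sided, with Benjamini-Hochberg adjustment and a threshold of 0.05. The code was tested on simulated data. Tables and plots used Python 3.11.15 and matplotlib 3.10.9. The 8 genes and all lists were chosen with earlier results of these data known. Named were all 8 genes, all IL-6 family ligands and receptors, up to 5 called genes with the largest log2 change per other list, and the 5 nearest profiles. Alternatives changed the pseudocount (0.1), the filter (none, or 5 TPM), the scaling, the groups fitted, the eBayes trend, a replicate block, the hearts included and, added after the values were seen, an atrial covariate. Promoter sequences and gene positions come from RefSeq and GENCODE annotations of GRCm38. The result of 1 listed pathway gene is not reported here, though it stays in the counts.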

Additional observations from a re-analysis of the deposited data

How the results depend on the processing

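The sign of the log2 change was kept by all 8 genes in CDDP against Saline and in STING-/- against Saline hearts under every alternative run. Fitting only the compared groups gave 3 of the 8 genes, 10 pathway genes higher and 2 lower called in CDDP against Saline. Of the 13815 tested genes, that fit called 326 higher and 496 lower, against 1177 and 1433 in the main fit. In STING-/-+CDDP against CDDP it called 1 of the 8 genes and 0 pathway genes, with 7 of all tested genes higher and 31 lower. In STING-/-+CDDP against STING-/- it called 2 pathway genes, with 64 of all tested genes higher and 140 lower. Pathway calls in STING-/-+CDDP against CDDP numbered 1 with a pseudocount of 0.1 and 0 without a filter. Of all tested genes, 45 were called higher and 84 lower with that pseudocount, and 5 and 7 without a filter. The cause was not tested. Leaving out each heart in turn gave 4 to 7 of the 8 genes called in CDDP against Saline and 0 to 1 in both STING-/-+CDDP comparisons (Saa3, without STING-/- heart 2). Without that heart, 59 of all tested genes were called lower against CDDP and 10 higher against STING-/-. Over all left-out hearts, from 534 (without Saline heart 1) to 1421 (without Saline heart 2) of all tested genes were called higher in CDDP against Saline. Pathway genes then numbered 8 to 24 higher (8 without Saline heart 1) and 5 to 6 lower in CDDP against Saline. They numbered 0 to 6 in STING-/-+CDDP against CDDP (6 without CDDP heart 2) and 0 to 1 against STING-/- (1 without Saline heart 1 or CDDP heart 1). Of all tested genes, 130 were called higher and 250 lower against CDDP without CDDP heart 2. Against STING-/-, 40 were called higher and 118 lower without Saline heart 1, and 57 and 147 without CDDP heart 1.

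The same numbers in the labels do not mark shared animals, and correlations of same-numbered hearts ranged from -0.333 to 0.261. With the replicate block 4 of the 8 genes were called in CDDP against Saline (not Hp and Osmr) and 1 pathway gene in STING-/-+CDDP against CDDP. Of all tested genes the block fit called 954 higher and 1221 lower in the first comparison and 21 higher and 46 lower in the second.

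The sign turned in these cases. For Hp, STING-/-+CDDP against CDDP gave 0.013 with median-of-ratios scaling, 0.00691 with quantile normalization and 0.25 with the atrial covariate, and -0.58 to 0.24 over the left-out hearts. Against STING-/- it gave 0.36 with the atrial covariate and -0.97 to 0.26 over the left-out hearts. Over the left-out hearts C3 ran from -0.052 to 0.81 against CDDP and from -0.013 to 0.56 against STING-/-, Osmr from -0.47 to 0.069 against CDDP, and Lbp from -0.065 to 0.44 against STING-/-. The interaction of C3 was 0.52 with the atrial covariate and -0.86 to 0.084 over the left-out hearts.

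Across all tested genes, STING-/-+CDDP against CDDP gave 50 calls higher and 118 lower, against 279 and 389 with median-of-ratios scaling and 314 and 357 with quantile normalization, and the median of all genes moved from -0.095 to 0.002 and 0.009. A fit without CDDP heart 1, Saline heart 2 and STING-/- heart 2 together was also run after the values were seen and gave further calls. It was set aside, also after its calls were seen, because 2 of these hearts had the highest level of all 8 genes in their group, so that the choice followed the outcome. With 3 hearts a group and no read counts, small changes could not be resolved.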
